A study of Mus musculus with 6 samples.

Results

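Interferon signalling was compared between B16-F1 and D5.1G4, 2 mouse melanoma lines, through 48 genes: receptor subunits, Janus kinases, transcription factors of the STAT and IRF families, and genes that interferons induce. A gene was taken when the accession of one of its probes matched its symbol. This found 46 of the 48 among 20659 genes with a probe on the array, while Mx1 and Mx2 had no matched probe and are not analysed here. B16-F1 is a line of the B16 melanoma of C57BL/6 mice, and the labels do not say how D5.1G4 was derived. Both lines were left untreated and no interferon was added. They were grown for 24 h in RPMI-1640 with 10% serum, from 1000000 cells in a well, and had reached 75 to 95% confluence. RNA of each line was hybridised to 3 one-colour Agilent arrays. The labels do not say whether these were separate cultures, so p-values speak only to the spread over these 3 samples a line, and that spread may be technical.

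Interferons are secreted proteins, and cells release type I interferons on sensing viruses or tumour nucleic acids. Type I interferons bind the receptor made of IFNAR1 and IFNAR2, and interferon gamma binds IFNGR1 and IFNGR2. The receptors act through the kinases JAK1, JAK2 and TYK2, which activate STAT proteins. A complex that holds STAT2 and IRF9 binds interferon-stimulated response elements (ISREs) in the promoters of antiviral and antigen presentation genes. The interferon gamma signal acts through a different element, the GAS. Melanoma cells keep this pathway to differing degrees, and it sets how visible they are to T cells.

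The share of spots well above background, the scanner software's mark for a measurable signal, was 62.0% and 61.7% on B16-F1 replicates 2 and 3, which share a scan time (scan 1), and 53.4% to 54.4% on the other 4 arrays, B16-F1 replicate 1 included. The part of this gap in the results on dim genes and on the order of the B16-F1 arrays was not tested. Correlations over features, which are not independent replicates, were 0.983 to 0.993 within a line and 0.941 to 0.957 between lines. The 7 melanocyte markers, among them Mitf, Tyr and Pmel, were above background on all 6 arrays and with limma 0 of them passed the test below (5 had an unadjusted p under 0.05). Of 24 markers of leukocytes, macrophages, dendritic cells, fibroblasts, endothelium and epithelium with a probe, 12 were not above background on any array, among them Epcam, Krt8, Krt18, Lyz2 and Pdgfra. Cd3e, Itgam, Csf1r, Pecam1 and Kdr were above background on all 6 arrays, Itgam at 539 to 2030 and Kdr at 791 to 1684. Adgre1 was above background on 3 B16-F1 and 2 D5.1G4 arrays. All of these were tested and did not pass. Siglech, a dendritic cell marker, was at 14778 to 20404 in B16-F1 and 26886 and 45945 on the 2 measured D5.1G4 arrays. Its difference, -1.01, passed the test (limma adjusted p = 0.0448), while Itgax was above background on no array and Flt3 on fewer than 3. The part of other cell types in the results below was not tested.

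Signals below are processed intensities scaled so that the 75th percentile of every array is 1348. Differences are log2 values of B16-F1 minus D5.1G4, with the standard error (SE) of the fit. A gene is said to have risen or fallen in B16-F1 when its limma adjusted p was 0.05 or less and its fold at least 2, with n = 3 arrays in each line. A lower signal in such a bulk sample cannot tell fewer expressing cells from less RNA per cell. Of the 46 genes, 41 had a measurable signal on 3 or more arrays and were tested. Ifitm1 was above background on 2 arrays only, and Irf7, Ifi44, Gbp7 and Iigp1 on none.

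Trim30a, Usp18, Bst2, Irf9, Gbp3 and Parp14 rose in B16-F1 and Uba7 and Ifit1 fell. These 8 of 41 tested genes (19.5%) compare with 15.2% of all 18442 features tested. The 6 that rose make 14.6% of the genes, against 6.28% of all features, and the 2 that fell make 4.88%, against 8.89%. The difference was positive in 29 of the 41 genes (70.7%) and in 49.7% of all features, and its median was 0.38 against -0.00 over all features. In 24 of the 41 genes (58.5%) every array of one line lay beyond every array of the other, 17 higher and 7 lower in B16-F1, which held for 50.7% of all features measured on every array. Without the minimum fold, 21 genes (51.2%) had an adjusted p of 0.05 or less, against 34.9% of all features. The counts of higher genes include Trim30a, which passed the filter through B16-F1 alone and so had to differ. They also include Usp18, which met the filter through its 3 B16-F1 arrays and was above background on only 1 D5.1G4 array. Where all 6 arrays had to be above background, 4 of 39 genes rose, against 790 of 15161 features. The genes were chosen with earlier results of these data known, so the counts describe them and are not a test of the list. Leaving out B16-F1 replicate 1 raised the number that rose to 7 and the number that fell to 4, adding Isg15 (-1.07) and Dtx3l (-1.03). The B16-F1 arrays left in that fit are those of scan 1, which holds no D5.1G4 array, so line and scan cannot be told apart there. Between B16-F1 replicate 1 and the D5.1G4 arrays that share its scan time, Isg15 differed by -0.59 and Dtx3l by -0.51.

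**Figure D1:**
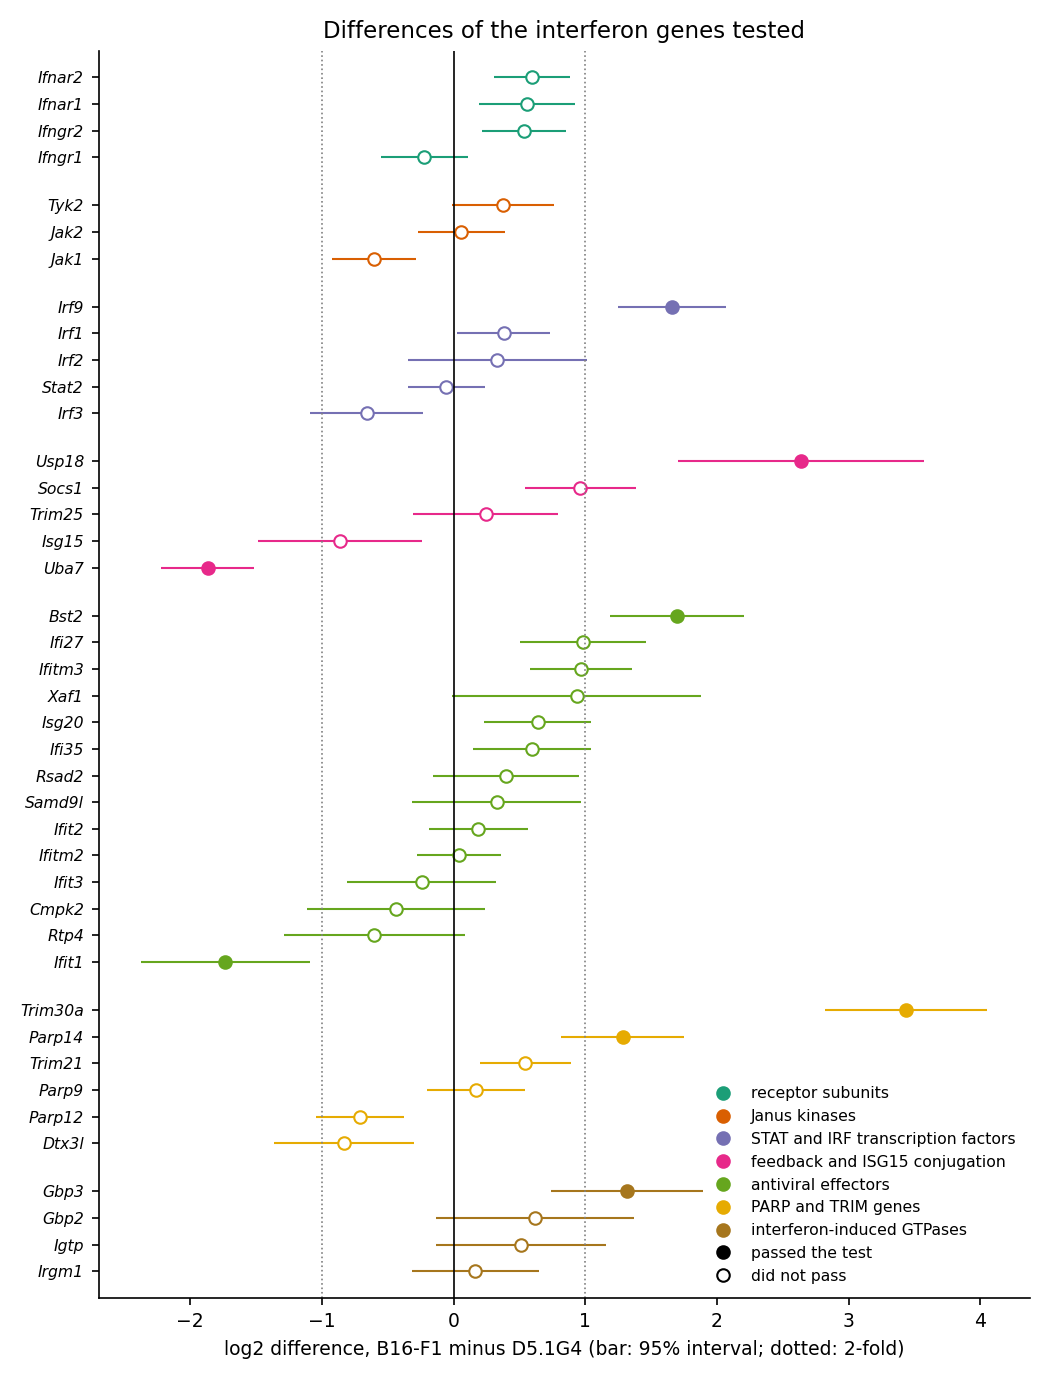
Log2 difference between B16-F1 and D5.1G4 for the 41 interferon genes tested, grouped by role, with the 95% interval of the limma fit from 3 arrays a line. Filled points passed the test (adjusted p of 0.05 or less and at least 2-fold, dotted lines). 6 filled points lie to the right and 2, Ifit1 and Uba7, to the left.

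All 4 receptor subunits were well above background on every array of both lines, and with limma 0 of the 4 passed the test, although 3 had an unadjusted p under 0.05. Ifnar1, the low-affinity chain of the type I receptor, had signals of 2629, 2568 and 2061 in B16-F1 and 1472, 1629 and 1828 in D5.1G4. Ifnar2, the chain that binds type I interferon first, had 5043, 5987 and 5655 against 3431, 3789 and 3803. In both genes every B16-F1 array lay above every D5.1G4 array, but the differences of 0.56 (SE 0.15, limma adjusted p = 0.0323) and 0.60 (SE 0.12, limma adjusted p = 0.011) stayed under 2-fold. A further Ifnar1 probe above background on all arrays gave 0.66. Ifngr2, the signalling chain of the interferon gamma receptor, showed a like difference, with 4326, 4503 and 3818 against 2686, 3259 and 2806 (0.53, SE 0.13, limma adjusted p = 0.0232). Its partner Ifngr1, the ligand-binding chain, overlapped between the lines, at 2476, 2443 and 2603 against 3053, 3274 and 2500.4. Its difference was -0.22 (95% interval -0.55 to 0.11).

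The 3 Janus kinases were also measured in both lines, and with limma 0 of them passed (1 had an unadjusted p under 0.05). Jak1, which serves both receptor types, had 10674, 11415 and 9169.9 in B16-F1 and 14928, 17087 and 15372 in D5.1G4. All its B16-F1 arrays were the lower ones, with a difference of -0.60 (SE 0.13, limma adjusted p = 0.0148). Tyk2, the kinase bound to IFNAR1, had 514, 455 and 525 against 314, 414 and 430.4 (0.38, limma adjusted p = 0.118). Jak2, bound to IFNGR2, overlapped, at 4684, 4539 and 4239.7 against 3681, 4688 and 4621, and its difference of 0.06 had a 95% interval of -0.27 to 0.39. Type I receptor chains and Jak1 thus differed in opposite directions, each by less than 2-fold.

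**Figure D2:**
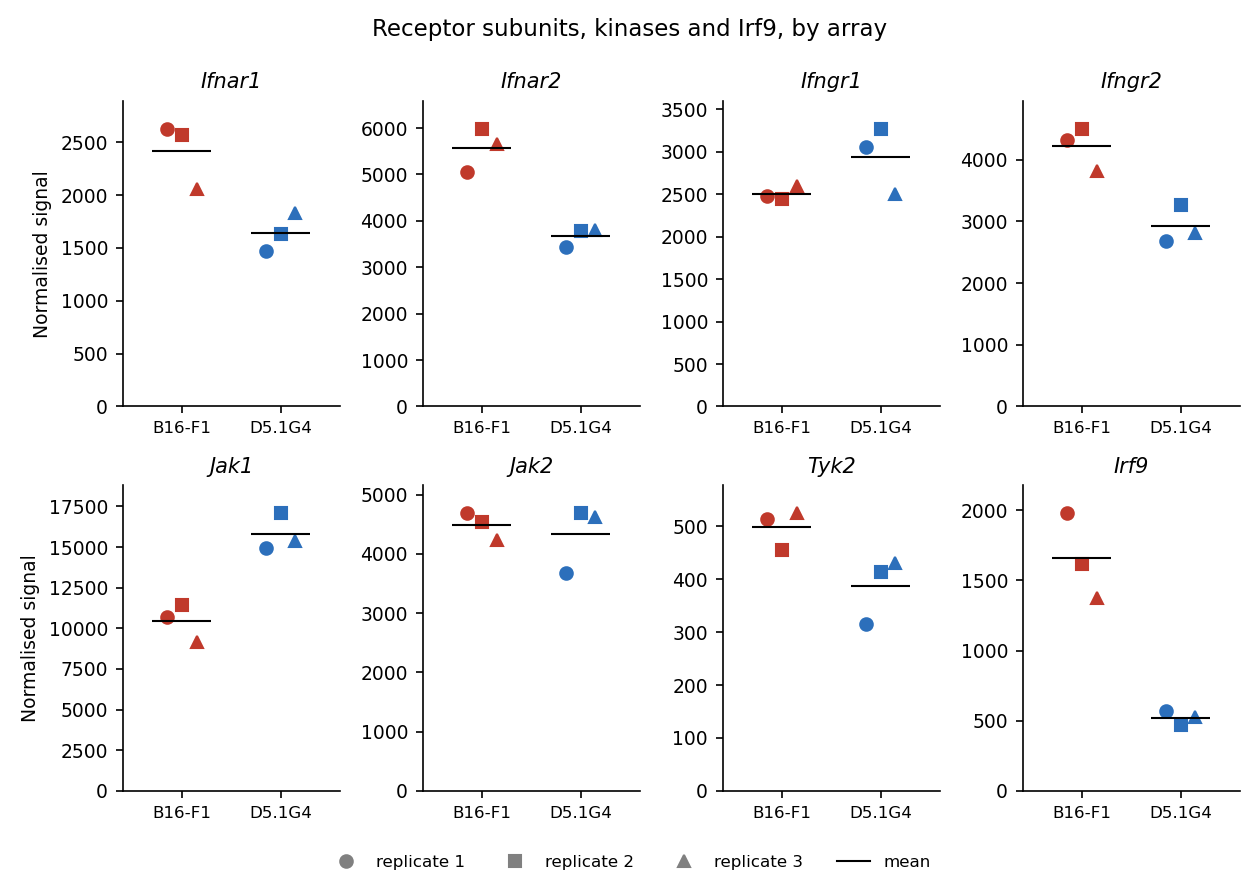
Normalised signal (linear axis from 0, 75th percentile of each array set to 1348) of the 4 receptor subunits, 3 Janus kinases and Irf9 on each array, with the mean of each line as a bar. B16-F1 and D5.1G4 arrays are separate for Ifnar1, Ifnar2, Ifngr2, Jak1, Tyk2 and Irf9 and overlap for Ifngr1 and Jak2.

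Irf9, the DNA-binding subunit of the complex that binds ISREs, was the only one of 5 tested STAT and IRF genes to pass. Its signals were 1979, 1616 and 1377 in B16-F1 and 569, 467 and 528 in D5.1G4. The lowest B16-F1 array thus lay well above the highest D5.1G4 array, a 3.16-fold rise (1.66, SE 0.17, limma adjusted p = 0.000978). Its partner Stat2 had 2700.1, 2262 and 2262 against 2377, 2496 and 2601, overlapping arrays with a difference of -0.05 (95% interval -0.35 to 0.24).

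The remaining IRF genes did not pass or were not above background. Irf3, which cells activate on sensing viral nucleic acids, had 11986, 11794 and 9445 against 14204, 18718 and 19740.0, lower in every B16-F1 array but under 2-fold (-0.66, SE 0.18, limma adjusted p = 0.0314). Irf1, an activator induced by interferon gamma, had a difference of 0.38 (limma adjusted p = 0.0893). Its other probe, above background on 1 D5.1G4 array only, gave -3.69. Irf2, which competes with Irf1, ranged from 1101 to 2389 across the D5.1G4 arrays and differed by 0.33 (limma adjusted p = 0.4). Irf7, the main amplifier of type I interferon induction, was not above background on any array, with signals of 8.18 to 10.95.

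Conjugation of the ubiquitin-like protein ISG15 showed opposed changes in its enzymes. Uba7, the activating enzyme that starts conjugation, fell, with 1896, 1985 and 1486 in B16-F1 against 6361, 6839 and 6236 in D5.1G4. All B16-F1 arrays were far below the D5.1G4 arrays, 3.65-fold on average (-1.87, SE 0.15, limma adjusted p = 0.00037). Usp18, the protease that removes ISG15 and also blocks signalling at IFNAR2, rose, with 312, 261 and 178 against 25.8, 35.5 and 65.6. The rise was 6.24-fold (2.64, SE 0.38, limma adjusted p = 0.00348), though only 1 D5.1G4 array was above background. With normexp background correction it was 1.504 and missed the threshold (limma adjusted p = 0.06).

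Isg15 itself did not pass in the reported fit. It had 2033, 1633 and 1090.2 against 2319.9, 3031 and 3102, lower in every B16-F1 array (-0.86, SE 0.26, limma adjusted p = 0.0436), and its other probe gave -0.65. Trim25, a ligase for ISG15 and activator of RIG-I, overlapped between the lines (0.24, limma adjusted p = 0.444). Socs1, a feedback inhibitor of the Janus kinases, lay just under 2-fold, with 84.3, 101 and 115 against 60.5, 46.7 and 47.0 (0.96, SE 0.17, limma adjusted p = 0.00755). Socs1 passed when either line's replicate 1 was left out, at 1.08 (B16-F1) and 1.09 (D5.1G4). With normexp background correction its difference was 0.67 (limma adjusted p = 0.364), and without the arrays of scan 1 it was 0.72.

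Of 14 antiviral effector genes tested, 1 rose, 1 fell and 12 did not pass. Bst2, which encodes tetherin, a membrane protein that holds budding virus particles on the cell, had 3893, 2937 and 2653 in B16-F1 and 768, 1059 and 1097 in D5.1G4. It rose 3.24-fold with no overlap (1.70, SE 0.21, limma adjusted p = 0.00191). Ifit1, which binds viral RNA caps and blocks their translation, had 245, 252 and 189 against 1096, 590.3 and 662. It fell 3.32-fold (-1.73, SE 0.26, limma adjusted p = 0.00407). The Ifit1 call was lost with normexp (-1.33, limma adjusted p = 0.0517) and without the B16-F1 arrays of scan 1 (-1.62, limma adjusted p = 0.0702). The latter fit keeps 1 B16-F1 array, which is assumed to vary like the D5.1G4 arrays.

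The neighbours of Ifit1 in the Ifit cluster, which act with it, did not pass the test. Ifit2 had 1663, 1506 and 1332 against 1174, 1532 and 1249.9 (0.19, 95% interval -0.18 to 0.56). Ifit3 had 2843, 2359 and 1546 against 2535, 2484 and 2728 (-0.24, 95% interval -0.81 to 0.32). Both overlapped between the lines, while the difference of Ifit1 from Ifit2 or Ifit3 was not tested. Probes of Ifit, Ifitm and Gbp genes may also bind near-identical copies, which was not tested.

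Among the interferon-induced transmembrane genes, which block virus entry at membranes, Ifitm3 had 12638, 10286 and 8766 against 5591, 5048 and 5367. Every B16-F1 array was higher, by 0.97 (SE 0.16, limma adjusted p = 0.00545), which is 1.96-fold and so just short of the minimum. Ifi27, a mitochondrial and nuclear envelope protein gene, was likewise short of it at 1.97-fold, with 47588, 44156 and 31781 against 17453, 22572 and 22010.5 (0.98, SE 0.20, limma adjusted p = 0.0113). Both passed with quantile normalization (1.02 and 1.14) and with the authors' deposited values (1.03 and 1.14). Ifitm3 did not pass in 13 of 20 alternative fits and Ifi27 did not in 11, among them normexp (0.85 and 0.93). Ifitm2 overlapped, at 6968, 5662 and 7065 against 5968, 6533 and 6518 (0.04, 95% interval -0.28 to 0.36). Ifitm1 had signals of 5.76 to 29.6 in B16-F1 and 27.9 to 58.0 in D5.1G4, where 2 arrays were above background.

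The other effectors did not pass. Isg20, an exonuclease of viral RNA, was higher in every B16-F1 array by 0.64 (SE 0.17, limma adjusted p = 0.0287), but another of its probes gave -0.49. Ifi35, a signalling adaptor, differed by 0.59 (limma adjusted p = 0.0502), with no overlap. Rsad2, which encodes viperin, an enzyme that makes a chain-terminating nucleotide, had 2007, 1474 and 1130.2 against 1117, 1019.7 and 1285 (0.40, limma adjusted p = 0.231). Xaf1, a partner of apoptosis inhibitors, differed by 0.94 with the largest spread of the tested genes in B16-F1, at 280.1, 142 and 102. Samd9l, Cmpk2 and Rtp4 differed by 0.33, -0.43 and -0.60, each with overlapping arrays. A second, dim Cmpk2 probe, above background on no D5.1G4 array, gave 1.41.

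Of 6 PARP and TRIM genes 2 rose. Trim30a, a regulator of Toll-like receptor signalling, had 129, 101 and 66.1 in B16-F1, above background on all 3 arrays, and 9.79, 8.48 and 8.20 in D5.1G4, above background on 0. Since D5.1G4 gives only a bound, taken on each array as the dimmest signal still marked above background, the B16-F1 signal was higher by at least 2.47-fold (limma adjusted p = 0.00032). It passed the filter through B16-F1 alone and so had to differ, and with normexp its difference was 1.19 in place of 3.44 and missed the threshold (limma adjusted p = 0.177).

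Parp14, a mono-ADP-ribosyltransferase, rose 2.43-fold, from 316, 329.9 and 312 in D5.1G4 to 1000.2, 769.7 and 609.7 in B16-F1 (1.28, SE 0.19, limma adjusted p = 0.0039). B16-F1 and D5.1G4 arrays were well apart. Parp12, a relative, had 508, 438 and 431 against 851, 677 and 727 (-0.71, SE 0.14, limma adjusted p = 0.01), lower in every B16-F1 array and under 2-fold. Dtx3l, a ubiquitin ligase that works with PARP9, had 522, 402 and 299 against 639.8, 735 and 755 (-0.83, SE 0.22, limma adjusted p = 0.0289), while Parp9 itself overlapped (0.17, limma adjusted p = 0.43). Trim21, an intracellular antibody receptor, differed by 0.55 (SE 0.14, limma adjusted p = 0.0281) with no overlap.

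Interferon-induced GTPases attack the membranes of intracellular pathogens, and 1 of the 4 tested rose. Gbp3, a guanylate-binding protein gene, had 717, 496 and 387 in B16-F1 and 231, 199.7 and 192 in D5.1G4, a 2.49-fold rise with no overlap (1.32, SE 0.24, limma adjusted p = 0.00761). Gbp2, Igtp and Irgm1 differed by 0.62, 0.51 and 0.17, all with overlapping arrays and limma adjusted p from 0.177 to 0.55, and a second Irgm1 probe gave 0.80. Gbp7 and Iigp1 were not above background in either line.

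**Figure D3:**
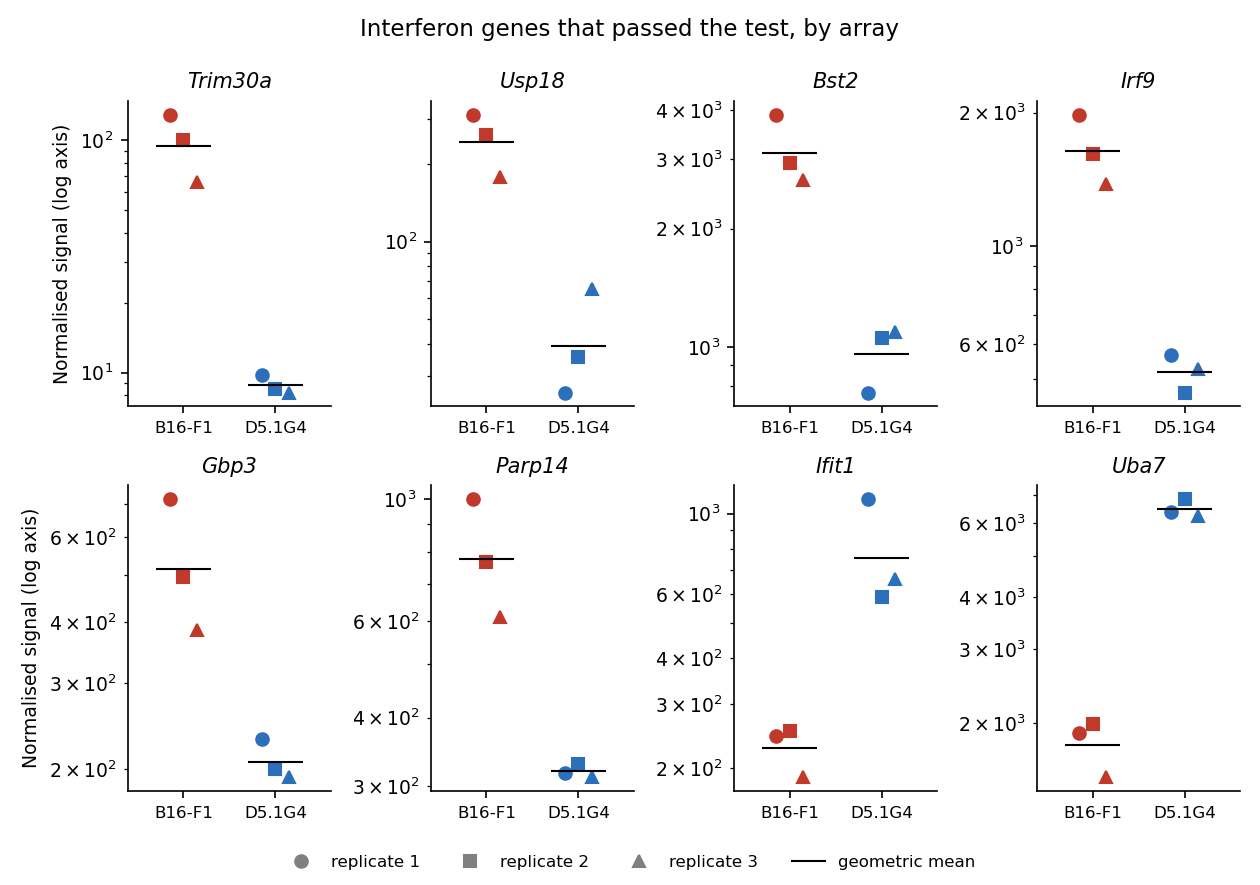
Normalised signal on each array (log axis, 75th percentile of each array set to 1348) of the 8 interferon genes that passed the test, with the geometric mean of each line as a bar and a symbol for each replicate. In 6 genes all B16-F1 arrays lie above all D5.1G4 arrays, and in Ifit1 and Uba7 below them. The D5.1G4 values of Trim30a and 2 of the 3 of Usp18 were not well above background.

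The 3 B16-F1 arrays varied more among themselves in 28 of the 41 genes than the D5.1G4 arrays did. The median SD of the log2 signals was 0.25 for B16-F1 and 0.17 for D5.1G4 over the 41 genes, against 0.17 and 0.20 over all features tested. Replicate 1 was the highest and replicate 3 the lowest B16-F1 array in 27 of the 41 genes (65.9%), an order that 24.5% of all features showed. Replicate 1 exceeded replicate 3 by at least 0.5 log2 units in 19 of the 41 genes (46.3%) and in 5.70% of all features. Over features above background on all 6 arrays these shares were 17 of 39 genes (43.6%) and 4.68%. These counts were made after the values were seen and carry no test.

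Genes other than receptors and kinases showed the gap between replicates 1 and 3 more than receptors and kinases did, a contrast that was not tested. In the 72 other pathway genes described below, the order with replicate 1 highest and replicate 3 lowest held in 29.2%, against 24.5% of all features. The median of replicate 1 minus replicate 3 was 0.54 over the 34 genes other than receptors and kinases, 0.14 over the 7 receptors and kinases, and 0.03 over all features. It was 0.81 in the feedback and ISG15 conjugation genes, 0.77 in the GTPases, 0.57 in antiviral effectors, 0.54 in PARP and TRIM genes and 0.26 in STAT and IRF genes. Replicates 1 and 3 stood at 1029 and 477 in Rtp4, at 2843 and 1546 in Ifit3 and at 2033 and 1090.2 in Isg15, each a larger log2 gap than any among the D5.1G4 arrays of that gene. Replicate 3 was instead the highest array in Ifngr1, Tyk2, Socs1, Isg20 and Ifitm2.

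Arrays that share a scan time hold B16-F1 replicates 2 and 3 in scan 1, B16-F1 replicate 1 with D5.1G4 replicates 2 and 3 in scan 2, and D5.1G4 replicate 1 in scan 3. Replicate 2, from the same scan as replicate 3, exceeded it in 34 of the 41 genes (82.9%), with a median of 0.32, against 65.1% and 0.10 over all features. In D5.1G4 replicate 3 was the highest and replicate 1 the lowest in 17 of the 41 genes (41.5%), against 18.3% of all features. Its median difference of replicate 1 from replicate 3 was -0.15.

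Within scan 2, with B16-F1 replicate 1 as the only array of its line, the median over the 41 genes was 0.48 and that over all features -0.15. There Ifitm3 differed by 1.28, Xaf1 by 1.62 and Ifi27 by 1.09, each more than in the fit of all arrays. Ifit1, Isg15 and Dtx3l differed by -1.35, -0.59 and -0.51, each less than the -1.73, -0.86 and -0.83 of the fit of all arrays. The sign changed in 3 genes that had not passed in the latter. The spread in the scan 2 fit comes from the D5.1G4 arrays alone. The lone B16-F1 array, the highest of its line in most of the 41 genes, is assumed to vary like them. A fit with scan as a block takes its difference between lines from the same 3 arrays, so its equal values are no second result. The part of the scan in the differences between lines was otherwise not tested.

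**Figure D4:**
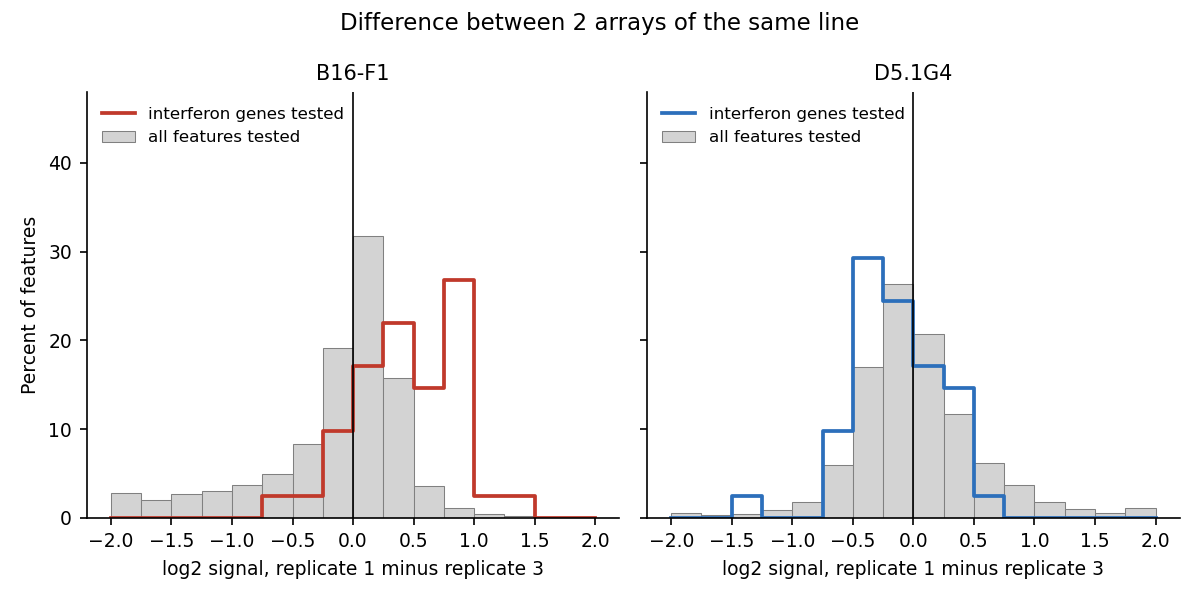
Distribution of the log2 signal of replicate 1 minus replicate 3 within each line, as the percent of features in each interval, for the 41 interferon genes tested (line) and all 17659 features measured on all arrays (grey bars); values beyond the axis are counted in the end intervals. In B16-F1 the interferon genes lie to the right of all features, with medians of 0.38 and 0.03, and in D5.1G4 their median is -0.15 against -0.03.

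The promoters of these genes were searched for the letters of the ISRE, because the complex that holds IRF9 binds there. Sequences are from RefSeq on GRCm38.p6, 250 bases before to 50 after the annotated start, and 40 of the 48 genes had at least 1 window. The ISRE letters, GAAA then any 2 bases then GAAA, on either strand and with overlapping matches counted apart, occurred in 17 of the 40 genes (42.5%) and in 3.99% of all 27025 genes in the table. The GAS letters, TTC then any 3 bases then GAA, occurred in 11 of the 40 (27.5%) and in 9.55% of all genes. ISRE letters were present in 3 of the 4 genes with a window that rose (Trim30a, Bst2 and Gbp3), in 1 of the 2 that fell (Ifit1) and in 12 of the 30 that were tested and did not pass. Gbp7, not above background, held them too, and Irf9 and Uba7 had no match in their windows. A match describes letters and is neither a bound site nor a cause.

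The 250 bases before the start are printed for 3 genes that rose, for Ifit1, which fell, and for Isg15, which did not pass, to show the same letters before genes with different outcomes. They run 5′ to 3′ on the gene's strand, and capitals mark the ISRE letters or their reverse complement. The stretches are chr7:104465194-104465443, minus strand (Trim30a), chr8:71537473-71537722, minus strand (Bst2), chr3:142559794-142560043, plus strand (Gbp3), chr19:34640639-34640888, plus strand (Ifit1) and chr4:156200819-156201068, minus strand (Isg15). The first match begins 36 bases before the start in Trim30a, 130 in Bst2, 45 in Gbp3, 104 in Ifit1 and 78 in Isg15.
Trim30a: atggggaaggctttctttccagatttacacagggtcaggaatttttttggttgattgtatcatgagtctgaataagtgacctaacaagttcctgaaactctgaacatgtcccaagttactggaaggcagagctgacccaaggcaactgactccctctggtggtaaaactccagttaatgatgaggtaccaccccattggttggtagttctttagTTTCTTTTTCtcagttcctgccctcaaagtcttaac
Bst2: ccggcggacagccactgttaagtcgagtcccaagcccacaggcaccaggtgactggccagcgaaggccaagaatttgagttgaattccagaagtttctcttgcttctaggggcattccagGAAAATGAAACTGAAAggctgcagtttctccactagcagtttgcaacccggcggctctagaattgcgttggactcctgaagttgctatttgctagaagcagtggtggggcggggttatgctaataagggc
Gbp3: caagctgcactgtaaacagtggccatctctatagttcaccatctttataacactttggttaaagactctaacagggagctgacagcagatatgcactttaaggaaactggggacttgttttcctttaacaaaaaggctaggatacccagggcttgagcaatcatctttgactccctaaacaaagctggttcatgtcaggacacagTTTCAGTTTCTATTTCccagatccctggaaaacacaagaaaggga
Ifit1: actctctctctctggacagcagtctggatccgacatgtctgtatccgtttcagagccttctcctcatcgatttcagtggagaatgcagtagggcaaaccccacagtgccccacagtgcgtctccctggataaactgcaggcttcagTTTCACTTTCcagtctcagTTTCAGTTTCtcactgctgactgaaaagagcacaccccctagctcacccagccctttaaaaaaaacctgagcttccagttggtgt
Isg15: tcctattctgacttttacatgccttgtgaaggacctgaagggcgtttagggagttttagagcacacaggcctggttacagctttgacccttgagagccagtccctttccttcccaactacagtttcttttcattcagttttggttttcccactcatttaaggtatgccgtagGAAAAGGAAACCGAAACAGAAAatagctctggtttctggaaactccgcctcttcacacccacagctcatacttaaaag

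Bst2 and Isg15 hold the letters as GAAA repeats on the printed strand, with 2 and 3 overlapping matches. Trim30a, Gbp3 and Ifit1 hold it as TTTC repeats, with 1, 2 and 2 matches. The 2 matches of Ifit1 do not overlap and stand in front of a gene that was 3.32-fold lower in B16-F1, whereas the single match in the printed stretch of Trim30a, which has another in the window of its second annotated start, stands before a gene seen above background in B16-F1 only.

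**Figure D5:**
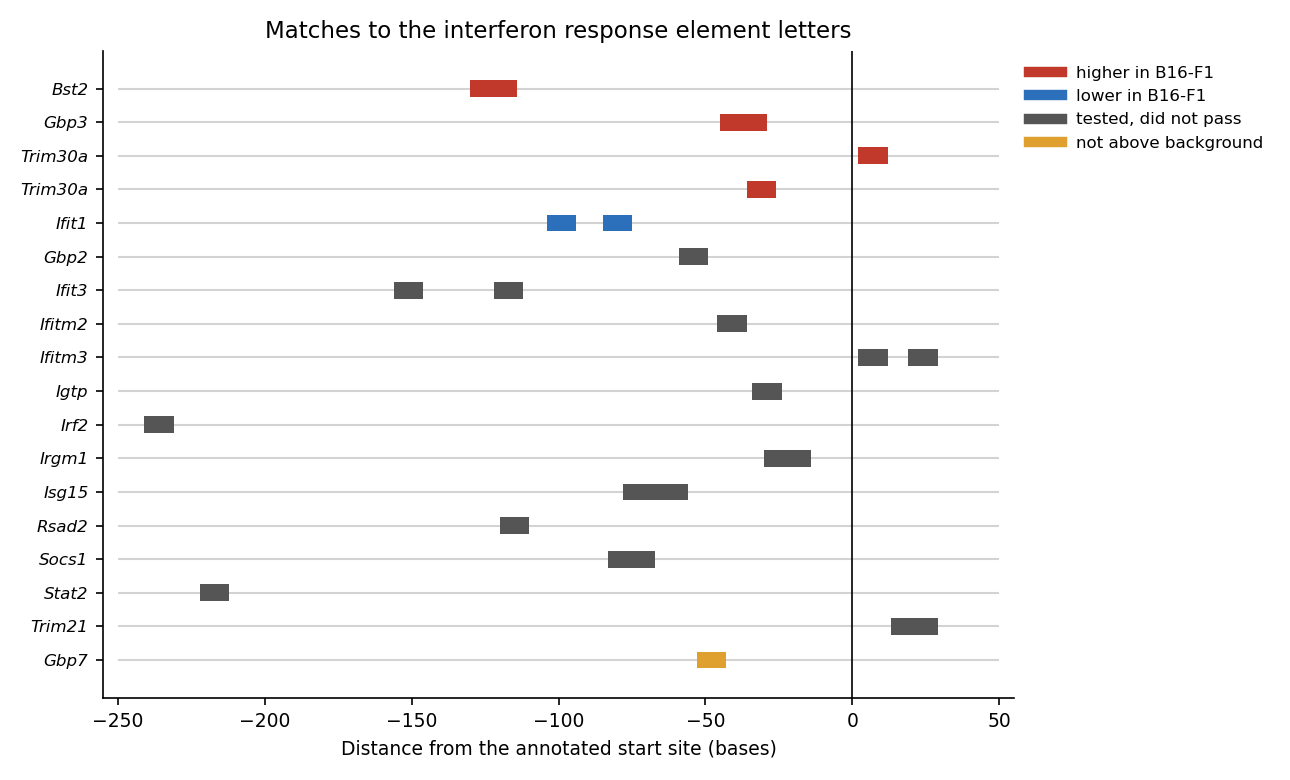
Position of matches to the ISRE letters on either strand in the windows of the 17 interferon genes that hold one, as distance in bases from the annotated start, coloured by the outcome of the comparison (1 row a window, Trim30a has 2). Overlapping matches appear as longer bars, and matches occur in genes that rose, fell and did not pass. Those of Ifit1, the only gene with a match that fell, begin 104 and 85 bases before the start.

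Other genes of the pathway, from a list of 112 that held ligands, the interferon lambda receptor, regulators and further induced genes, gave 72 tested. Of these 7 rose and 5 fell (9.72% and 6.94%), against the 6.28% and 8.89% of all features. The counts include Ifi27l2a, Ifitm6 and Batf2, which were above background in 1 line only, passed the filter through it and so had to differ. Replicate 1 was the highest and replicate 3 the lowest B16-F1 array in 21 of the 72 (29.2%), against 24.5% of all features. The largest differences included Ifi30, a lysosomal thiol reductase for antigen processing, at 2939.6, 2694 and 2275 against 311, 315 and 374 (2.98, SE 0.15, limma adjusted p = 7.18e-05). Lgals3bp, a secreted galectin-binding protein gene, rose by 2.27, Lgals9, the gene of galectin-9, by 1.82, and Ifi27l2a was at least 1.75-fold higher. Ifitm6 was at least 1.47-fold higher. The bounds of Ifi27l2a and Ifitm6 lie under the 2-fold minimum, so their calls rest on D5.1G4 values below background.

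Batf2, a transcription factor that pairs with IRF1, was at least 2.76-fold lower in B16-F1 and not above background there. Phf11d fell by 2.09 and was above background on 1 B16-F1 array. The chains of the interferon lambda receptor went opposite ways. Ifnlr1, its specific chain, had 45.5, 38.4 and 18.6 against 138, 141 and 129 and fell (-2.09, SE 0.33, limma adjusted p = 0.00492). Il10rb, the chain shared with the interleukin-10 receptor, is named to complete this receptor and rose 2.14-fold, with 5176, 4775 and 4507 against 1839, 2436 and 2521 (SE 0.16, limma adjusted p = 0.00329).

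Of the interferon ligands, Ifnb1 and Ifng, the genes of interferon beta and gamma, were not above background on any array. Ifna12 and Ifnl3 gave low signals whose lowest arrays were those of scan 2. Ifna12 had 52.6, 190.4 and 138 in B16-F1 and 89.5, 56.3 and 42.0 in D5.1G4, and Ifnl3, a lambda interferon gene, had 88.7, 387 and 268 against 189, 100.4 and 105. Of 9 ligand genes tested 0 passed with limma and 0 had an unadjusted p under 0.05, and the near-identical alpha genes can share signal between their probes.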

How the data were processed

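Total RNA was measured on 6 one-colour arrays (Agilent mouse 4x44K v2), 3 of each line, grouped by title. Each spot's intensity was extracted from a Cy3 scan with Agilent Feature Extraction 11.0.1.1, per the file headers and the submitters' processing notes, and background subtraction and spatial detrending statistics are given per the file headers. The authors' deposited table holds log2 values. How they were normalized: not given in the sources used here. It served as an alternative. The number of arrays limits the precision.

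The log2 processed intensity minus the array's 75th percentile was used. Outlier-marked spots, 0.674% to 1.58% per array, were left out, and repeat spots of each probe were averaged. Accessions were matched to the RefSeq table of GRCm38.p6, which named 27234 of 39429 probes (69.1%). The brightest probe stood for a gene, and probes of members were also fitted singly. Features well above background on at least 3 of 6 arrays were fitted with limma 3.58.1 in R 4.3.3 (lmFit, eBayes, Benjamini-Hochberg over 18442 features, 2-sided, line as only term), a procedure tested on simulated data. The members and lists were chosen with earlier results of these data known. All members are accounted for, and genes that passed are given by array. From the other pathway list the 8 called genes with the largest fitted difference are named, which for genes not above background in 1 line rests on values below background, and names beyond these rules were chosen after values were seen.

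Alternatives changed background correction, scaling, probe choice, filters, variance model, call rule, scan and arrays. Normexp used the spot median, because the tables carry no mean signal, and this choice and the fit without scan 1 were added after seeing the data.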

Additional observations from a re-analysis of the deposited data

How the results depend on the processing

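All 8 genes that passed kept their direction under the 20 alternatives, as far as these gave a value, and 5 of them (Irf9, Bst2, Parp14, Gbp3 and Uba7) kept their call in every one. Normexp cut the features called from 2799 to 1255, the interferon genes that rose from 6 to 4 and those that fell from 2 to 1. Without the arrays of scan 1, which leaves 1 B16-F1 array, the median difference of the interferon genes was 0.50 and that of Ifit1 was -1.62. Leaving out 1 array in turn gave 2530 to 3375 features called, 6 to 8 interferon genes that rose, 2 to 4 that fell and a median difference of 0.27 to 0.47. With the replicate number as a block (replicate block) 2580 features were called and the interferon genes stayed at 6 and 2. Deviations of same-numbered arrays from the mean of their line correlated at -0.39, -0.03 and -0.30. Because same-numbered arrays came from different scans, these values cannot show whether the numbers pair the arrays. The block changed no call among these genes. The mean over probes turned Irf1 to -2.27 (limma adjusted p = 0.0311), through a dim second probe that is missing on 1 array. Trim30a and Usp18 could not be tested where all 6 arrays had to be above background, which left 39 genes, of which 4 rose and 2 fell. Normexp on the mean signal was not run, since the tables hold no such column. Over all features the median difference moved from -0.00 to -0.15 with scan as a block and to -0.17 with no filter. Signals near background limit Trim30a, Usp18, Ifitm1 and the ligand probes.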
